A study of Mus musculus with 23 samples.

Results

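Primary melanomas of mice from an ultraviolet-induced model fell into a keratinocyte-rich and a keratinocyte-poor class, and 14 of the 23 libraries of the series were compared by that class. The 8 rich libraries are HP-1, HP-3, HP-4, HP-6, HPN-1, HPN-3, HPN-4 and HPN-6, and the 6 poor libraries are HP-5, HP-7, HP-9, HPN-2, HPN-5 and HPN-7. The classes were chosen by the measured level of keratinocyte genes such as Krt5, Krt14, Dsp and Trp63 in the same libraries, so the levels of these genes describe the choice and support nothing. HP primaries carry the genotype Nme1wt / Nme2wt and HPN primaries the genotype Nme1+/- / Nme2+/-. Each genotype gave 4 rich libraries and 3 poor ones. The labels do not spell out the prefixes HP and HPN, and they give no strain, age or sex, no position of the tumour on the body, and nothing on how skin was trimmed from it. Nothing in them says that each primary is from its own animal, and a p-value here reflects only how far these libraries scatter, on a class cut from expression in the same libraries. The other 9 libraries are HPN metastases, 7 from lymph nodes and 2 from lung. RNA was total RNA in directional libraries, read as counts per gene.

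Skin melanoma grows from melanocytes at the base of the epidermis, where each melanocyte touches many keratinocytes. Keratinocytes supply melanocytes with growth factors such as stem cell factor and endothelin, and take up the melanosomes that melanocytes make. A bulk tumour sample also holds whatever skin was cut with it, including epidermis, hair follicles, dermal collagen, fat and the thin muscle sheet beneath mouse skin. In bulk samples, fewer cells of a type and less RNA per cell cannot be told apart.

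The 4 marker genes set the classes far apart. Krt5 and Krt14, the keratin pair of basal keratinocytes, are given in CPM, counts scaled to the size of the library with the trimmed mean of M-values. Krt5 ran from 130.4 to 3118 CPM (median 1129) in the rich and from 0.400 to 14.973 CPM (median 3.63) in the poor libraries. Krt14 ran from 274 to 3029.5 CPM (median 1259) in the rich and from 0.364 to 23.5 CPM (median 4.58) in the poor libraries. Dsp, which encodes the desmosomal protein desmoplakin, ran from 195 to 4696 CPM (median 1548) in the rich and from 0.673 to 20.4 CPM (median 5.94) in the poor libraries. Trp63, the transcription factor of stratified epithelium, ran from 12.2 to 319 CPM (median 104) in the rich and from 0.0728 to 1.12 CPM (median 0.351) in the poor libraries. As the mean of the 4 markers in log2(CPM + 0.5), here with CPM of all gene counts, the rich libraries lay between 6.68 and 10.99 and the poor ones between -0.26 and 3.20, with no library between. The rule states levels above 5 and below 2, and HPN-2 and HPN-7 exceeded the lower bound on these 4 genes. Just inside the rich class stood HPN-6, and the highest poor libraries were HPN-7 and HPN-2. The 9 metastases ran from -0.44 to 3.20 on the same scale, inside or near the range of the poor primaries.

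**Figure D1:**
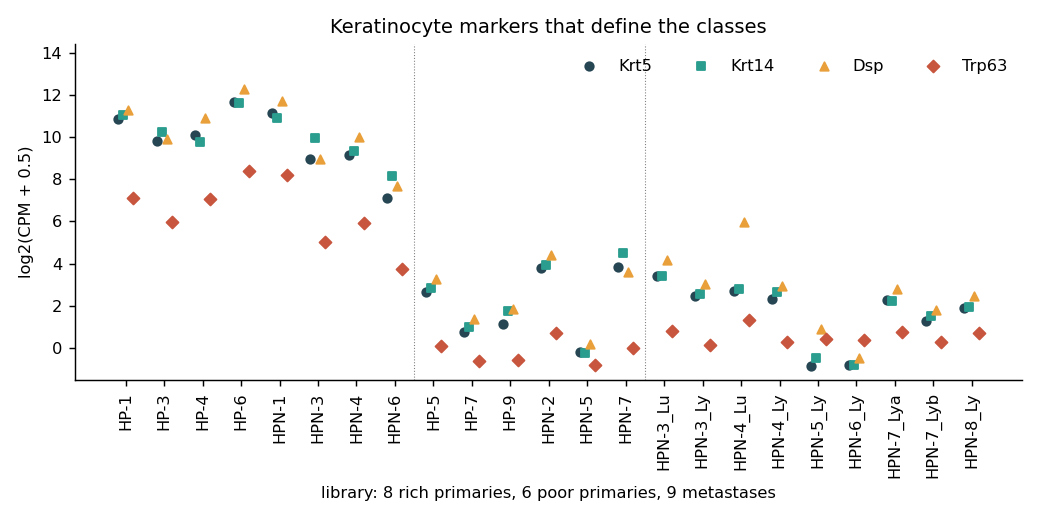
Levels of Krt5, Krt14, Dsp and Trp63 in each library, as log2(CPM + 0.5) on the vertical axis, with 8 rich primaries, 6 poor primaries and 9 metastases from left to right. The 4-marker mean of the rich libraries starts at 6.68, and that of the poor libraries ends at 3.20.

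Most other epithelial genes followed the markers, as a description with no test, since the classes were cut on the same kind of gene. All 32 measured members of the list of suprabasal and cornified-layer genes were higher in the rich class, with a median log2 difference of 7.81. Krt1 and Krt10 are the keratins of the layers above the basal one. Krt1 ran from 169 to 3373 CPM (median 609) in the rich and from 0.200 to 6.68 CPM (median 2.32) in the poor libraries. Krt10 ran from 115 to 3028 CPM (median 904) in the rich and from 0.564 to 8.63 CPM (median 2.59) in the poor libraries. Lce1f, a cornified envelope gene, ran from 4.26 to 60.4 CPM (median 13.3) in the rich and from 0 to 0.134 CPM (median 0.0211) in the poor libraries. Lce1e had 0 counts in all 6 poor libraries, which puts its difference at a log2 of at least 9.89 against a floor of 3 counts over the class. All 14 desmosome and plakin genes were also higher, with a median of 7.62. Of 12 basal keratinocyte genes, 10 were higher, while the integrin gene Itga6 had a log2 difference of 0.59 and the plakin gene Dst one of -0.50, and both overlapped between the classes. Of 12 barrier lipid enzyme genes, 9 were higher, and among those not called were Ugcg and Smpd1, with differences of -0.15 and -0.46. Hair follicle genes varied within the rich class. Krt25, an inner root sheath keratin, measured 497, 422 and 609 CPM in HP-6, HPN-1 and HPN-4, but 6.76, 2.04 and 4.19 CPM in HP-3, HPN-3 and HPN-6. Tchh, which encodes trichohyalin of the hair root, reached 3052 CPM in HPN-4 and 38.2 CPM in the poor library HPN-2, against at most 1.44 CPM in the other poor libraries. Krt2, another suprabasal keratin, did not separate the classes: it measured 927 and 666 CPM in HP-1 and HP-3, but 0 in HPN-6 and 0.203 CPM in HPN-4, below the 0.771 CPM of the poor library HP-5. Without HPN-2 the log2 difference was 8.83 for Krt1, 8.58 for Krt10, 9.62 for Lce1f, 9.33 for Krt25 and 9.33 for Tchh, against 8.13, 7.86, 9.01, 7.45 and 7.45 with all libraries. Without HP-6 it was 6.56 for Krt25 and 6.53 for Tchh, and without HPN-4 it was 6.803 for Tchh.

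Over all genes, rich and poor primaries differed widely in a fit with genotype as a covariate. Of 17432 genes tested, 3877 (22.2%) were called higher in the rich class and 2798 (16.1%) lower, at an adjusted p under 0.05 in edgeR's quasi-likelihood test. The median log2 difference over all genes tested was -0.07. The rises were large and the falls small. Among the genes called higher, 808 exceeded a log2 of 5, while 592 genes called lower passed a log2 of -1. For 1884 genes (10.8%) every rich library lay above every poor one, and for 409 (2.35%) every poor library lay above every rich one. Under scaling by library size alone the falls made up 31.8% of the calls, against 41.9% as reported, and without structural RNA they made up 50%. In HP primaries alone 3934 genes were higher and 1930 lower, and in HPN primaries alone 849 were higher and 63 lower. Of the genes named here that were called as reported, 72 of 110 tested in HPN alone were not called there, against 7 of 111 in HP alone, with 4 rich and 3 poor libraries in each. Among the 72 were Tyr, Mitf, Sox10, Pax3, Col1a1, H2-Aa, Jag1 and Egfr (adjusted p 0.066 to 0.299). The test of the difference between genotypes is given below. Counts over lists cover members that passed the filter on low counts, which asks for about 0.247 CPM (10 counts in a library of median size) in several libraries. A gene can pass through 1 class alone, and such a gene had to differ. Of the 3877 genes called higher, 1554 had a median under that minimum in the poor class. Genes of this kind, and genes introduced as epidermal, are given below with levels and no p, and their counts are a description.

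Measures of whole libraries were compared as well. Counts in genes ran from 20418245 to 89481553 in the 8 rich and from 28854232 to 84902927 in the 6 poor libraries, and their means did not differ beyond the spread (exact two-sided permutation p 0.71). Rich libraries detected more genes. At 1 CPM or more they held 13813 to 15463 genes and the poor libraries 12690 to 13241, with no overlap (exact permutation p 0.000333, the smallest that 3003 arrangements can give, adjusted p 0.00233 over 7 measures). This count includes the keratinocyte genes that set the classes, so its p is not independent of their choice and supports nothing. Of uniquely aligned reads, 0.486% to 0.775% in the rich and 0.663% to 0.886% in the poor libraries fell on more than 1 gene (adjusted exact permutation p 0.028). The difference did not pass for medians (0.0711) or in the 9 libraries whose entry for low-quality reads is 0 (0.417). HP-3 stood apart from the others, with 35.9% of its counts in 10 genes and 11.9% in mitochondrial genes. The entry for reads of low alignment quality was above 0 in HP-3 and HP-6 of the rich class and in HP-7, HP-9 and HPN-7 of the poor class. It was above 0 in no other primary, and how such reads were handled is not given.

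Cell division genes were lower in the rich class. All 20 tested members of the mitosis list were called lower, with a median of -1.04, against 16.1% of all genes, and all 20 were lower in each of the 14 fits that left out 1 library. Ccnb2, a B-type cyclin that drives entry into mitosis, ran from 8.05 to 23.7 CPM (median 14.7) in the rich and from 34.4 to 50.1 CPM (median 39.3) in the poor libraries, and the classes did not overlap (log2 -1.34, SE 0.21, adjusted p 0.000259). Birc5, or survivin, a part of the chromosomal passenger complex, ran from 4.95 to 13.6 CPM (median 8.90) in the rich and from 18.049 to 23.7 CPM (median 21.3) in the poor libraries, again with no overlap (log2 -1.197, SE 0.17, adjusted p 0.000184). Top2a, the topoisomerase that untangles replicated DNA, ran from 52.3 to 129 CPM (median 93.7) in the rich and from 148 to 259.7 CPM (median 201) in the poor libraries (log2 -1.04, SE 0.19, adjusted p 0.000946). Mki67, the proliferation antigen, ran from 87.2 to 298 CPM (median 152) in the rich and from 178 to 461 CPM (median 366) in the poor libraries (log2 -1.02, SE 0.26, adjusted p 0.0082). For Mki67 the classes overlapped, since the rich library HP-3 held 298 CPM and the poor library HP-5 178 CPM. Among DNA replication genes, 14 of 16 fell and 0 rose, with a median of -0.84. Pcna, the sliding clamp of DNA polymerase, ran from 59.1 to 109 CPM (median 70.3) in the rich and from 115 to 173 CPM (median 130.04) in the poor libraries (log2 -0.85, SE 0.14, adjusted p 0.000547). Mcm2, a subunit of the replicative helicase, ran from 25.5 to 67.7 CPM (median 46.4) in the rich and from 54.4 to 174 CPM (median 114) in the poor libraries (log2 -1.296, SE 0.25, adjusted p 0.00137).

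**Figure D2:**
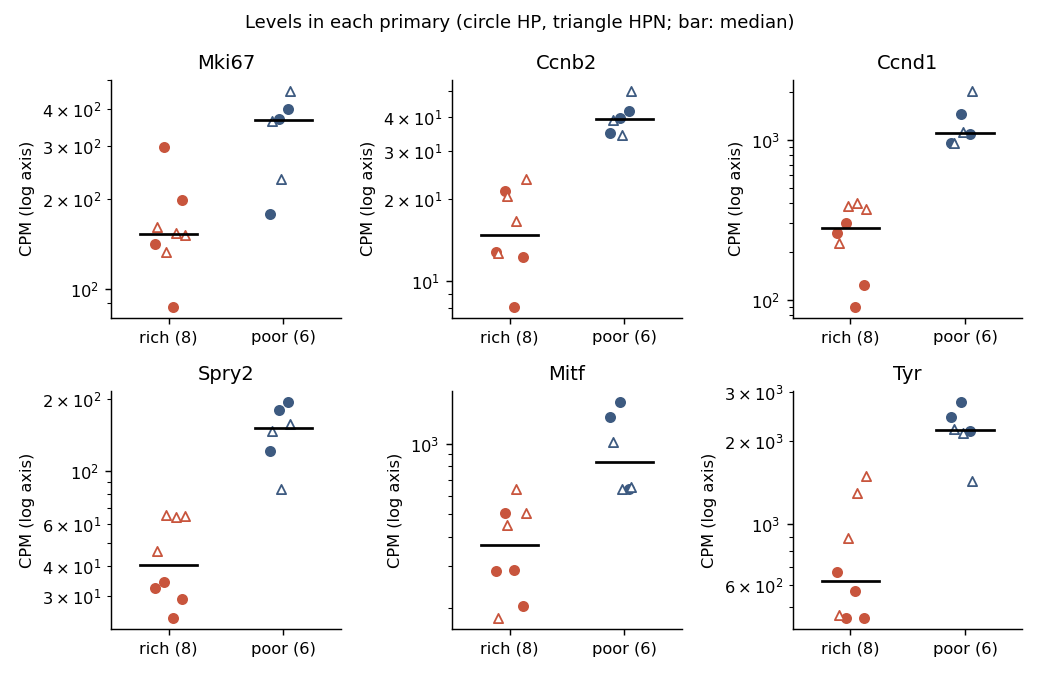
CPM on a log axis of Mki67, Ccnb2, Ccnd1, Spry2, Mitf and Tyr in each primary, with 8 rich libraries at the left and 6 poor ones at the right of each panel; circles are HP, triangles HPN and bars the class medians. Ccnb2, Ccnd1 and Spry2 do not overlap between the classes, whereas Mki67 does.

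Promoters of the mitosis genes are shown because all of these genes moved one way. Each window holds the 250 bases before the start in RefSeq, on GRCm38.p6. Capitals mark the cell cycle homology region element TTTGAA and the CCAAT box, CCAAT, each searched on both strands, where the letters ATTGG and TTCAAA are the same motifs read from the other strand. The windows are the 3 with the smallest p among mitosis genes that hold both motifs.
Ccnb2 (chr9:70421555-70421804, minus strand): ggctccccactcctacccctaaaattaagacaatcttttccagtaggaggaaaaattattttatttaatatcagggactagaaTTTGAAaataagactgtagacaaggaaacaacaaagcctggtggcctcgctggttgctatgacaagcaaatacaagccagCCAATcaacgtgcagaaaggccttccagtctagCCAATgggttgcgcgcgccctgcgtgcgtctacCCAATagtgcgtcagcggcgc
Top2a (chr11:99024190-99024439, minus strand): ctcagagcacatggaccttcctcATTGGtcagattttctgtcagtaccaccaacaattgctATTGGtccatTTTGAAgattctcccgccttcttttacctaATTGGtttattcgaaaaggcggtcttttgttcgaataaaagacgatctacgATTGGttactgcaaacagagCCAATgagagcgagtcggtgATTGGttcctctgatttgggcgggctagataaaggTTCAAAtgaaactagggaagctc
Cdk1 (chr10:69352913-69353162, minus strand): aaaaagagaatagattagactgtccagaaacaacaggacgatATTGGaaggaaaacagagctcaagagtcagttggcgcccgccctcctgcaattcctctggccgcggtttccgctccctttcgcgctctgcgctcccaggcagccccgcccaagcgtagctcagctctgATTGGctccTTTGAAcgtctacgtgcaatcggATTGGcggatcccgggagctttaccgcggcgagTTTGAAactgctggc
Of 16 mitosis genes with a window, 14 (87.5%) held a CCAAT box, against 35.6% of 11951 windows of tested genes. TTTGAA was in 6 of the 16 (37.5%), against 11.1% of all windows. The 6 were Ccnb2, Top2a, Cdk1, Cdc20, Kif11 and Mki67. In Cdk1, which encodes the main mitotic kinase, TTTGAA starts 71 and 15 bases before the gene start. Among DNA replication genes, 3 of 13 windows held TTTNGCGC, an E2F-type motif, against 1.8% of all windows. The window of Mcm6, a helicase subunit, is printed with that motif in capitals, including an overlapping pair on opposite strands.
Mcm6 (chr1:128359706-128359955, minus strand): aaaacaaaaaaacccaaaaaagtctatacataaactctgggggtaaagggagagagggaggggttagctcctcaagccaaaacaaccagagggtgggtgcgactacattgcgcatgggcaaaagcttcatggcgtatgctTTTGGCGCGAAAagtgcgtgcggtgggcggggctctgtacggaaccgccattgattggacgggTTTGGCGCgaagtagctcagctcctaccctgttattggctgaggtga
A match is a description of letters and no site was tested here.

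Cyclin D1 was lower in every rich library than in any poor one. Ccnd1, which encodes the cyclin that couples growth signals to entry into the cell cycle, ran from 90.1 to 401 CPM (median 280.3) in the rich and from 952 to 2042 CPM (median 1103) in the poor libraries (log2 -2.297, SE 0.30, adjusted p 8.86e-05). In the G1 checkpoint list, 7 of 13 genes fell and 1 rose, against 16.1% and 22.2% of all genes. E2f1, a transcription factor for S-phase genes, fell (log2 -1.09, SE 0.20, adjusted p 0.000781). Cdkn2a, the locus of the p16 and p19 inhibitors, ran from 7.60 to 46.3 CPM (median 15.9) in the rich and from 45.4 to 71.004 CPM (median 47.5) in the poor libraries (log2 -1.496, SE 0.31, adjusted p 0.00215). Cdk6, a partner kinase of the D cyclins, moved the other way and ran from 19.1 to 59.3 CPM (median 34.7) in the rich and from 3.79 to 14.9 CPM (median 7.38) in the poor libraries (log2 2.12, SE 0.27, adjusted p 8.14e-05). Within the rich class Cdk6 was highest in HP-6 and lowest in HPN-6, as Krt5 was, so its p may follow the choice of classes.

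Most listed genes that report signalling through the MAP kinase pathway were called lower. The pathway relays receptor signals through RAF, MEK and ERK, and its output includes feedback inhibitors that rise when ERK is active. Of 17 members, 10 were lower and 3 higher, with a median of -0.98, against 16.1% of all genes lower and 22.2% higher, and 10 were lower in every fit that left out 1 library. Spry2, a feedback inhibitor of receptor tyrosine kinase signalling, ran from 24.2 to 65.4 CPM (median 40.3) in the rich and from 84.1 to 195 CPM (median 152) in the poor libraries, with no overlap (log2 -1.81, SE 0.25, adjusted p 0.000137). Spry4, its relative, fell by 1.44 on the log2 scale (SE 0.28, adjusted p 0.0015). The ERK phosphatases Dusp4 and Dusp6 had differences of -1.14 (SE 0.33) and -1.04 (SE 0.19), with adjusted p 0.0157 and 0.000839. Phlda1 ran from 80.6 to 303 CPM (median 161) in the rich and from 317 to 568.07 CPM (median 351) in the poor libraries without overlap (log2 -1.199, SE 0.26, adjusted p 0.00248). In edgeR fits of 1 genotype alone, Dusp4 was called in neither HP nor HPN (adjusted p 0.0729 and 0.22). Spry4, Dusp6 and Phlda1 were called in HP alone but not in HPN alone (adjusted p 0.195, 0.0755 and 0.186 in HPN). The 3 members that rose were Dusp5, Epha2 and Epha4. Epha2, an ephrin receptor that epidermis also makes, ran from 8.57 to 78.3 CPM (median 32.977) in the rich and from 1.61 to 4.61 CPM (median 2.62) in the poor libraries (log2 3.65). Of the immediate early genes, 2 of 16 rose and 1 fell, shares below those of all genes. Fos, a component of the AP-1 factor, fell (log2 -1.63, SE 0.32, adjusted p 0.0015), while Egr2 rose (log2 4.04, SE 0.63, adjusted p 0.000294). Within the rich class Egr2 was highest in HP-6 and HPN-1, as Krt5 was, so its p may follow the choice of classes. In edgeR fits of HPN primaries alone neither Fos nor Egr2 was called (adjusted p 0.11 and 0.0624). Without 1 library, HPN-7, 4 of the immediate early genes rose and 2 fell, and without HPN-2, HPN-4 or HPN-5 those that fell numbered 2, 2 and 3.

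Some regulators of the melanocyte lineage fell. Among lineage regulators, 7 of 15 tested members were lower and 0 higher, with a median of -0.79, against 16.1% of all genes lower. Mitf, the master regulator of the melanocyte lineage, ran from 180.4 to 638 CPM (median 370.02) in the rich and from 638 to 1504 CPM (median 835) in the poor libraries (log2 -1.33, SE 0.33, adjusted p 0.00615). Sox10, the neural crest factor that activates it, ran from 129.9 to 613 CPM (median 268) in the rich and from 472 to 871 CPM (median 762) in the poor libraries (log2 -1.24, SE 0.27, adjusted p 0.00265). Pax3, a paired-box factor of the same network, ran from 81.5 to 249 CPM (median 131) in the rich and from 274 to 418 CPM (median 345) in the poor libraries, with every poor library above every rich one (log2 -1.27, SE 0.25, adjusted p 0.00129). Of 21 melanosome and pigment genes, 5 were lower and 0 higher, with a median of -0.59. This count of 5 in 21 is near the 16.1% of all genes lower and is no result about the list. It was 2 without HP-1, HP-4, HP-5, HP-6 or HP-7 and to 3 without HPN-3, HPN-5 or HPN-7, and without HPN-1 there was 1 rise. Tyr, the rate-limiting enzyme of melanin synthesis, ran from 457 to 1485 CPM (median 622) in the rich and from 1432 to 2758 CPM (median 2182) in the poor libraries (log2 -1.56, SE 0.29, adjusted p 0.00109). Dct, which converts dopachrome, ran from 2906 to 16359 CPM (median 6761) in the rich and from 13079 to 25680 CPM (median 20382) in the poor libraries (log2 -1.38, SE 0.38, adjusted p 0.0113). Tyrp1, the third enzyme of the family, had a log2 difference of -1.17 (SE 0.43, adjusted p 0.0431), which did not pass without HP-1, HP-4, HP-5, HP-6, HP-7, HP-9, HPN-3, HPN-5 or HPN-7 (adjusted p 0.0549 to 0.0886). Gpnmb and Mlana, both melanosome genes, were not called. Gpnmb ran from 3060 to 9344 CPM (median 7581) in the rich and from 4946 to 9089 CPM (median 7069.7) in the poor libraries (log2 -0.01, SE 0.27, adjusted p 0.984), and Mlana, or Melan-A, ran from 160.2 to 675 CPM (median 382) in the rich and from 71.031 to 451 CPM (median 283) in the poor libraries (log2 0.77, SE 0.36, adjusted p 0.109). Without HPN-1 the difference of Mlana was 0.95 and passed (adjusted p 0.0288).

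Windows of 3 pigment enzyme genes are shown because these genes were called lower and their windows share a motif. Capitals mark TCATGTG on either strand, the core of the M-box that Mitf is known to bind.
Tyr (chr7:87493513-87493762, minus strand): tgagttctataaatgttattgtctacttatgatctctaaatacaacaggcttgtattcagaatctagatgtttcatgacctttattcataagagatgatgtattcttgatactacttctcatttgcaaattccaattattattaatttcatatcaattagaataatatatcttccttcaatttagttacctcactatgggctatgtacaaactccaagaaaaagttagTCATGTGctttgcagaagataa
Dct (chr14:118052247-118052496, minus strand): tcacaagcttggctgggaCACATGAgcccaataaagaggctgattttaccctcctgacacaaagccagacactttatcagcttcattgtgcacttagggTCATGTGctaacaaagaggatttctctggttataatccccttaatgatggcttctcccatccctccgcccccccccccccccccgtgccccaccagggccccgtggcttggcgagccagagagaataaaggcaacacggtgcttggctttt
Tyrp1 (chr4:80833963-80834212, plus strand): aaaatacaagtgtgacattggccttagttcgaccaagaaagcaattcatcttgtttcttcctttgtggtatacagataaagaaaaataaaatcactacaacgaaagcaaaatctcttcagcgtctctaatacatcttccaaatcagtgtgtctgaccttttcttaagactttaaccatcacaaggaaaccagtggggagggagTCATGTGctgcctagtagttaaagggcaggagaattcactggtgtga
The motif was in 5 of 16 windows of the pigment genes (31.2%), against 2.0% of all windows and 2.0% of the windows of genes called lower. The other two were Slc24a5 and Trpm1, which were not called, with differences of -0.74 and -0.04. Slc24a5 passed without HP-3 or HP-9 (log2 -0.81 and -0.88, adjusted p 0.0485 and 0.0402). TCATGTG starts 22 bases before the start of Tyr and 47 before that of Tyrp1.

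Among keratinocyte-melanocyte signals some ligands rose, and both directions were present among receptors. Of 18 tested ligands, 8 were called higher and 0 lower, with a median of 1.74, against 22.2% of all genes higher, and 3 of the 8 had a poor-class median under the filter's minimum. The Notch ligands Jag1 and Jag2 rose with no overlap, Jag1 from 8.21 to 19.3 CPM (median 9.80) in the poor to 27.5 to 237 CPM (median 112) in the rich libraries (log2 3.43, SE 0.50, adjusted p 0.000194) and Jag2 by a log2 of 4.13 (SE 0.58). Among rich libraries both ligands were lowest in HPN-6, which also held the least Krt5, so their tests may follow the choice of classes. Tgfa, an EGF receptor ligand of keratinocytes, ran from 4.95 to 61.2 CPM (median 24.7) in the rich and from 0.436 to 4.13 CPM (median 2.12) in the poor libraries (log2 3.46). Nrg1, a ligand of the Erbb receptors, ran from 0.991 to 6.33 CPM (median 4.14) in the rich and from 0.0182 to 0.447 CPM (median 0.0773) in the poor libraries (log2 4.83), with a difference of 5.995 without HPN-7. Edn2, an endothelin, had 0 counts in every poor library and 0.0443 to 4.38 CPM (median 0.627) in the rich ones, a log2 of at least 6.95. Kitl, Hgf and Edn1, classic melanocyte factors, did not pass the test with all libraries. Kitl, the stem cell factor that keeps melanocytes alive, ran from 41.4 to 75.2 CPM (median 59.3) in the rich and from 34.2 to 159 CPM (median 91.3) in the poor libraries (log2 -0.55, SE 0.27, adjusted p 0.121), and passed as lower without HPN-5 (log2 -0.75, adjusted p 0.0303). Hgf, the ligand of Met, had a difference of -0.504 (SE 0.25), and Edn1 one of 2.92 (SE 1.21), with adjusted p 0.127 and 0.0718. Edn1 reached 6.83 CPM in the poor library HPN-7, and the other poor libraries stayed at or below 0.297 CPM. Without HPN-7 the difference of Edn1 was 5.06 and passed (adjusted p 0.000535), and it passed without HPN-6 (3.39, adjusted p 0.0407), in DESeq2 (3.02, adjusted p 0.00245) and in both voom fits (4.03 and 3.58, adjusted p 0.00404 and 0.0121). With 1 library left out (HP-9, HPN-1, HPN-2, HPN-4, HPN-5 or HPN-7) 1 ligand fell.

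Of 17 receptors, 8 rose and 2 fell, against 22.2% and 16.1% of all genes. Fgfr2, whose epithelial form binds keratinocyte growth factor, ran from 4.29 to 126 CPM (median 55.3) in the rich and from 0.255 to 1.02 CPM (median 0.369) in the poor libraries (log2 7.002). Notch2 ran from 146 to 403 CPM (median 285) in the rich and from 56.5 to 116 CPM (median 103) in the poor libraries (log2 1.497, SE 0.23, adjusted p 0.000257), and Notch3 rose by a log2 of 2.75 (SE 0.45). Egfr rose as well (log2 3.24, SE 0.73, adjusted p 0.00347), with a difference of 3.88 without the poor library HPN-5, which held 40.1 CPM. Among rich libraries Egfr was highest in HP-6 (257 CPM) and lowest in HPN-6 (24.1 CPM), as Krt5 was, so its p may follow the choice of classes. Notch2 and Notch3 were also highest in HP-6 and lowest in HPN-6, so the same holds for their tests. Mc1r, the melanocortin receptor of melanocytes, fell (log2 -1.08, SE 0.33, adjusted p 0.0187). Met fell (log2 -0.75, SE 0.26, adjusted p 0.0325), but did not pass without HP-1, HP-6, HP-7, HPN-3, HPN-4, HPN-5 or HPN-7 (adjusted p 0.0517 to 0.0633). Kit, the receptor for stem cell factor, ran from 23.4 to 221 CPM (median 99.976) in the rich and from 8.03 to 120.5 CPM (median 21.8) in the poor libraries and was not called (log2 1.19, SE 0.68, adjusted p 0.181). Without HPN-7 its difference was 2.14 and passed (adjusted p 0.0269), and both voom fits called it (2.21 and 1.66, adjusted p 0.00896 and 0.0463).

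Connective tissue genes rose with the keratinocyte genes. In the fibroblast and collagen list, 14 of 17 members rose and 0 fell, with a median of 2.65, against 22.2% of all genes higher. Col1a1, the main chain of type I collagen, ran from 1141 to 12343 CPM (median 3856) in the rich and from 101 to 1078 CPM (median 473) in the poor libraries, with no overlap (log2 3.22, SE 0.62, adjusted p 0.00132). Col3a1, of the reticular collagen, ran from 1089 to 7673 CPM (median 2366) in the rich and from 63.9 to 586 CPM (median 278) in the poor libraries (log2 3.47, SE 0.58, adjusted p 0.000485). Pdgfra, a receptor of fibroblasts, rose with no overlap (log2 3.27, SE 0.57, adjusted p 0.000637). Col1a1, Col3a1 and Pdgfra were highest in HP-6 and lowest in HPN-6 of the rich class, as Krt5 was. Their p may therefore follow the choice of classes. Blood vessel genes were more mixed, with 8 of 15 higher and 1 lower, against 22.2% and 16.1% of all genes. Without HP-7 5 were higher, and without HPN-7 2 were lower. Vwf, von Willebrand factor, ran from 48.6 to 218 CPM (median 106) in the rich and from 21.4 to 31.8 CPM (median 27.2) in the poor libraries (log2 1.98, SE 0.28, adjusted p 0.000157). Eng, the endoglin of activated endothelium, was the gene that fell (log2 -0.85, SE 0.25, adjusted p 0.0164). Of 6 tested lymphatic genes, 5 rose. Pdpn, or podoplanin, which basal keratinocytes can also make, ran from 40.1 to 116 CPM (median 59.1) in the rich and from 2.25 to 13.8 CPM (median 4.37) in the poor libraries (log2 3.51).

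Fat and muscle marked some rich libraries more than others. Over all genes tested, 22.2% were called higher. Of 12 adipocyte genes, 11 were called higher, with a median of 5.76, and 6 of the 11 had a poor-class median under the filter's minimum. Lpl, the lipoprotein lipase, ran from 53.4 to 249.7 CPM (median 192) in the rich and from 6.64 to 39.4 CPM (median 18.99) in the poor libraries (log2 3.12, SE 0.44, adjusted p 0.000161), and Adipoq, the fat hormone adiponectin, ran from 0.516 to 27.1 CPM (median 8.08) in the rich and from 0.0185 to 0.437 CPM (median 0.166) in the poor libraries (log2 5.75). Skeletal muscle genes had a median of 4.86 and 16 of 17 rose, although voom with quality weights called 4 of 17. Of the 16, 4 had a poor-class median under the filter's minimum. Ttn, which encodes the sarcomere protein titin, reached 3426 CPM in HPN-1 and 1903 in HP-4, but 43.2 CPM in the rich library HP-1, below 71.6 CPM in the poor library HPN-5. Without HPN-1 its difference was 4.79, against 5.42 with all libraries. Genes of dermis, fat and muscle thus moved with the keratinocyte class, and their part in the other differences was not tested.

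**Figure D3:**
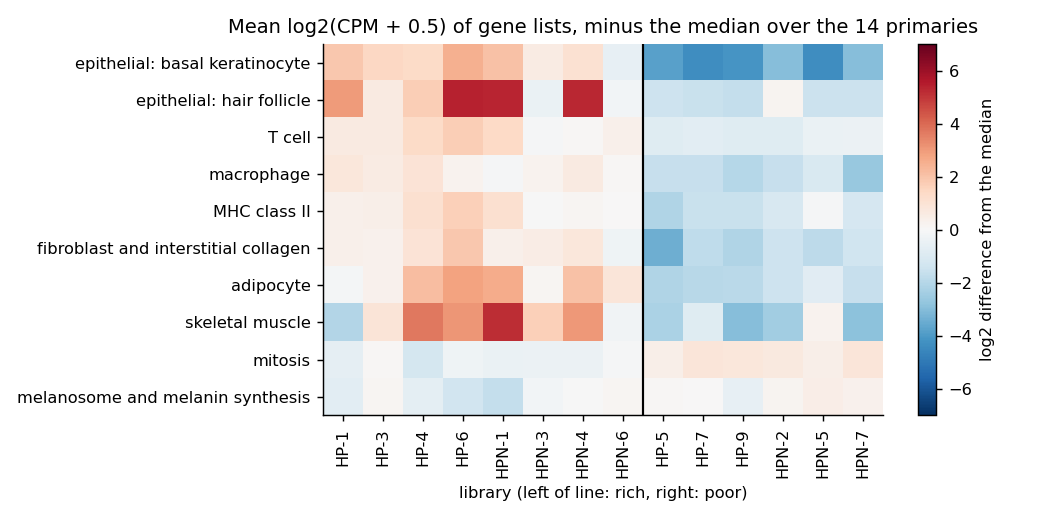
Mean log2(CPM + 0.5) of 10 gene lists in the 14 primaries, minus the median of that list over the primaries (red above, blue below); the black line divides rich from poor libraries. Hair follicle genes are high in HP-6, HPN-1 and HPN-4, muscle genes are highest in HPN-1, and the mitosis list is lower in the rich libraries.

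Macrophage genes rose in the rich class, and T cell genes were higher from low levels. All 18 tested T cell genes were called higher, with a median of 2.76, but 13 of them had a poor-class median under the filter's minimum, so the count is a description. Cd3e, a chain of the T cell receptor complex, ran from 0.975 to 7.0042 CPM (median 1.88) in the rich and from 0.0335 to 0.494 CPM (median 0.161) in the poor libraries, with no overlap (log2 3.77). Foxp3, the factor of regulatory T cells, ran from 0.310 to 3.83 CPM (median 1.03) in the rich and from 0.0370 to 0.235 CPM (median 0.115) in the poor libraries (log2 3.29). Among cytotoxic and natural killer genes, 8 of 9 were called higher, 6 of them with a poor-class median under that minimum. Of 15 macrophage genes, 14 rose, with a median of 2.22, against 22.2% of all genes, and none was under the minimum in the poor class. In each fit without 1 library, 14 rose. Csf1r, the receptor for macrophage colony-stimulating factor, ran from 91.9 to 259 CPM (median 126) in the rich and from 12.9 to 37.2 CPM (median 23.3) in the poor libraries (log2 2.601, SE 0.30, adjusted p 5.37e-05). Cd163, a scavenger receptor of resident macrophages, ran from 2.77 to 23.011 CPM (median 10.8) in the rich and from 0.0706 to 1.47 CPM (median 0.313) in the poor libraries (log2 4.45, SE 0.66, adjusted p 0.000216). Cd207, or langerin, the marker of the Langerhans cells of the epidermis, ran from 0.272 to 7.07 CPM (median 1.41) in the rich and from 0 to 0.0670 CPM (median 0) in the poor libraries. It had 4 counts in all over the poor class. Of 9 tested B cell genes, 2 were called higher, the same share as the 22.2% of all genes, which is no result about the list. Ms4a1, which encodes CD20, ran from 0 to 1.31 CPM (median 0.159) in the rich and from 0.0185 to 0.848 CPM (median 0.293) in the poor libraries (log2 0.07, SE 1.03, adjusted p 0.964), and 1 gene was called in fits without HP-1, HP-3, HP-4, HP-5, HP-6, HP-7, HP-9, HPN-1 or HPN-2.

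Antigen presentation and checkpoint genes moved with the immune lists. Of 10 MHC class II genes, 7 rose, against 22.2% of all genes. H2-Aa, a class II chain, ran from 36.7 to 129.9 CPM (median 53.961) in the rich and from 3.39 to 27.1 CPM (median 8.56) in the poor libraries (log2 2.699, SE 0.48, adjusted p 0.000701). Its poor-class maximum was in HPN-5. Of 10 tested class I and immunoproteasome genes, 7 rose. H2-K1, a classical class I heavy chain, ran from 288 to 708 CPM (median 354) in the rich and from 47.3 to 159 CPM (median 101) in the poor libraries with no overlap (log2 2.12, SE 0.31, adjusted p 0.000204). Of 12 checkpoint genes, 10 were called higher, 4 of them with a poor-class median under the filter's minimum. Vsir, which encodes the inhibitory receptor VISTA, ran from 70.7 to 147 CPM (median 85.5) in the rich and from 7.41 to 27.2 CPM (median 12.4) in the poor libraries (log2 2.79, SE 0.31, adjusted p 4.77e-05). Cd274, which encodes PD-L1, did not pass the test and ran from 21.3 to 101 CPM (median 54.5) in the rich and from 24.965 to 126 CPM (median 39.7) in the poor libraries (log2 0.37, SE 0.41, adjusted p 0.497). Its highest value of all 14 primaries, 126 CPM, was in the poor library HPN-2.

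Wnt and Hedgehog pathway genes, which pattern skin appendages, were higher in part. Over all genes tested, 22.2% were called higher and 16.1% lower. Of 26 tested Wnt pathway genes, 17 were called higher and 0 lower, with a median of 3.46. Of the 17, 11 had a poor-class median under the filter's minimum, so the count is a description. Wnt7b, an epidermal ligand, ran from 0.867 to 25.5 CPM (median 9.38) in the rich and from 0 to 0.0740 CPM (median 0.0168) in the poor libraries (log2 8.42). Axin2, a target gene that reports Wnt signalling, had a difference of 0.22 (SE 0.34) and was not called (adjusted p 0.636). Of 10 Hedgehog genes, 5 were called higher and 1 lower, with 2 of the 5 under that minimum in the poor class, and 2 fell without HPN-7. Gli2, an activator of the pathway, rose (log2 4.05, SE 0.71, adjusted p 0.00067), and Gli3, which also makes a repressor, fell with no overlap (log2 -1.04, SE 0.16, adjusted p 0.000298). Matrix proteases split by gene. Mmp9, a gelatinase, ran from 22.6 to 93.3 CPM (median 47.2) in the rich and from 0.132 to 5.65 CPM (median 0.922) in the poor libraries (log2 5.15, SE 0.76, adjusted p 0.000203), with a difference of 5.99 without HPN-7. Within the rich class Mmp9 was highest in HP-6 and lowest in HPN-6, as Krt5 was, so its p may follow the choice of classes. Adam12, a disintegrin protease, ran from 24.5 to 154 CPM (median 60.7) in the rich and from 213 to 401 CPM (median 343) in the poor libraries with every poor library higher (log2 -2.197, SE 0.35, adjusted p 0.000354).

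**Figure D4:**
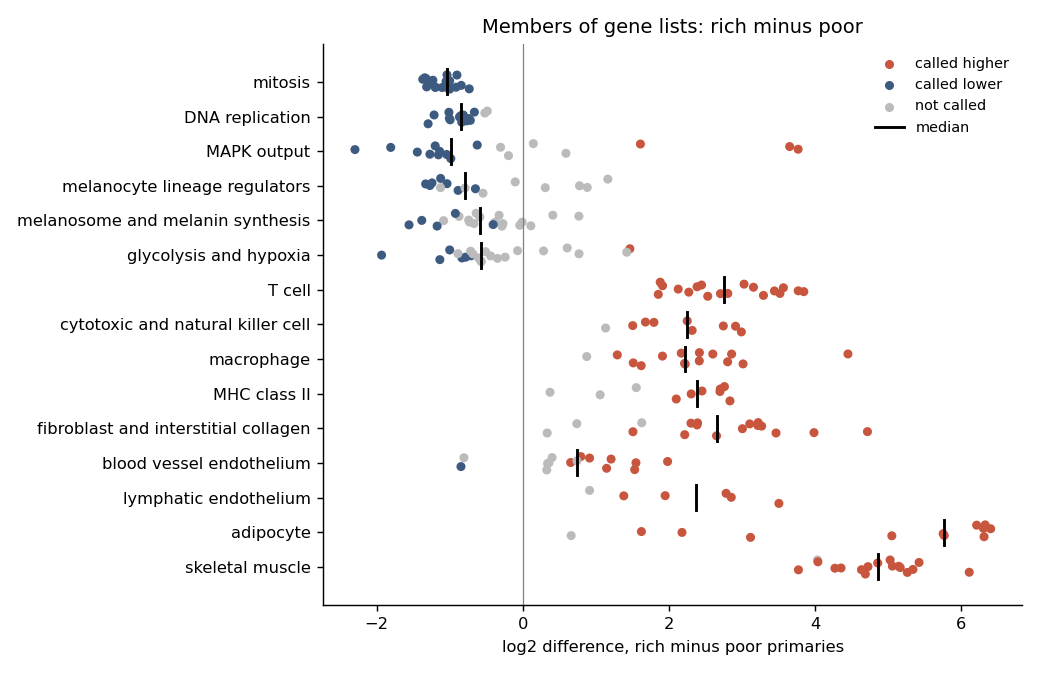
Log2 difference, rich minus poor, of the tested members of 15 gene lists (points; red called higher, blue called lower, grey not called), with the median as a black bar. All 20 mitosis genes lie on the lower side, and all 18 T cell genes on the higher side.

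Stress and metabolism lists were split. Of 18 p53 targets and related genes, 8 fell and 4 rose, against 16.1% and 22.2% of all genes. Ccng1, a p53-induced cyclin, fell (log2 -0.796, SE 0.19, adjusted p 0.00455), and Fas, a death receptor, rose (log2 2.03, SE 0.28, adjusted p 0.00014). Of 22 glycolysis and hypoxia genes, 6 fell and 1 rose, against 16.1% and 22.2% of all genes, and without HPN-7 4 rose. Pgk1, a glycolytic kinase, ran from 134 to 302 CPM (median 208) in the rich and from 346 to 775 CPM (median 382) in the poor libraries (log2 -1.14, SE 0.22, adjusted p 0.00132). In the Nme family, 1 of 6 tested genes was called. Nme1, a nucleoside diphosphate kinase, fell (log2 -0.68, SE 0.21, adjusted p 0.0233) and did not pass without HP-5 or HP-7 (adjusted p 0.0509 to 0.0553). Its HP classes did not overlap, with 28.5, 23.1 and 17.7 CPM in the poor libraries and at most 13.4 CPM in the rich. Its HPN classes overlapped, and in an edgeR fit of HPN primaries alone it was not called (log2 -0.29, adjusted p 0.637). Nme2, its close relative, had few counts in all libraries (0.0707 to 0.838 CPM) and a difference of -0.42 (SE 0.38) (adjusted p 0.407). How reads on overlapping genes were counted is not given, so few counts need not mean little Nme2 RNA.

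The genes named here for the size of their fall were in none of the gene lists. Among the 15 largest falls of genes averaging 5 CPM or more in poor primaries were Klhl14, Pgr, Fam196a, Nalcn, Slc44a5, Esm1, Cdh10, Snx22, Fam184b, Lrrc4b, Gprin1, Rab3b and Phyhipl. Klhl14 ran from 0.0222 to 0.984 CPM (median 0.106) in the rich and from 1.42 to 11.4 CPM (median 3.13) in the poor libraries (log2 -4.61, with no p since its rich-class median is under the filter minimum). Pgr, the progesterone receptor, ran from 0.0895 to 2.63 CPM (median 0.476) in the rich and from 0.188 to 52.1 CPM (median 10.4) in the poor libraries (log2 -4.59, SE 0.91, adjusted p 0.00153). HPN-2 held 52.1 CPM and HPN-7 0.188 CPM, so the poor class was not uniform. Cdh10, a cadherin, ran from 0.179 to 2.79 CPM (median 1.28) in the rich and from 7.68 to 17.5 CPM (median 10.3) in the poor libraries and did not overlap (log2 -3.23, SE 0.56, adjusted p 0.000658), with a difference of -3.86 without HP-1. Esm1, an endothelial proteoglycan, fell (log2 -3.25, SE 0.74, adjusted p 0.0039), with a difference of -2.301 without HPN-7. Slc44a5 did not pass without HP-1, HP-3, HP-4, HP-6, HP-7, HPN-1, HPN-3, HPN-5 or HPN-6 (adjusted p 0.0627 to 0.289), and without HP-7 its difference was -1.33. Lrrc4b did not pass without HPN-5 (log2 -2.45, adjusted p 0.0538), and it was -3.43 without HPN-6. Nalcn, a sodium leak channel, did not pass without HP-1, HP-3, HP-4, HP-6 or HPN-2 (adjusted p 0.0569 to 0.0743), and stood at -4.46 without HPN-6 and -4.46 without HPN-7. Phyhipl did not pass without HP-1, HP-3, HP-4, HP-5, HP-6, HP-7, HP-9 or HPN-1 (adjusted p 0.0505 to 0.0879).

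The largest rises outside the epithelial lists were genes nearly absent from the poor libraries. They were Skint8, Oas1f, Wfdc5, Kctd4, Tgm5, Serpina3b, Skint1, Ggt6, Il1f5, Fam25c, Defb6, Wnt3, Aadacl2, Stfa1 and Atp12a, all 15 without overlap between the classes. Of all genes tested, 10.8% had every rich library above every poor one. The 15 were picked for the size of their rise, so their lack of overlap is a description and no result. Skint1, an immunoglobulin-family gene of keratinocytes and thymus that selects epidermal gamma-delta T cells, ran from 1.86 to 68.9 CPM (median 18.2) in the rich and from 0 to 0.165 CPM (median 0.0238) in the poor libraries (log2 9.098). Il1f5, an interleukin-36 receptor antagonist, ran from 9.18 to 97.1 CPM (median 30.8) in the rich and from 0 to 0.165 CPM (median 0.0578) in the poor libraries (log2 8.96). Tgm5, an epidermal transglutaminase, ran from 2.25 to 38.2 CPM (median 9.10) in the rich and from 0 to 0.0370 CPM (median 0.0286) in the poor libraries (log2 9.17). These 3 genes are products of epidermis, so their levels describe the choice of classes, as those of the marker genes do. The others of the 15 were not sorted by tissue, and the same may hold for them. Skint1 stood at 8.27 without HPN-1 and 9.89 without HPN-2.

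The class difference itself was compared between genotypes, with class, genotype and their interaction in 1 fit. Of 18425 genes tested, 1 (0.00543%) was called, Tubb3, while 1851 had an unadjusted p under 0.05 and DESeq2 called 271. Tubb3 encodes a beta-tubulin of neurons that melanoma can also make. In HP it measured 41.1, 31.8, 34.8 and 42.9 CPM in the 4 rich and 315, 225 and 503 CPM in the 3 poor libraries. In HPN it measured 97.3, 148, 167 and 138 CPM in the 4 rich and 115, 128 and 124 CPM in the 3 poor libraries. The HP classes did not overlap and the HPN classes did. Rich minus poor was -3.22 (SE 0.26) in HP and 0.16 (SE 0.25) in HPN, a difference of 3.38 (SE 0.36, adjusted p 0.00734). The next genes by p, which did not pass (adjusted p 0.199), were Agrn, Epha5, Btbd16, Nfatc1, Apol7d and Mcam. Mcam, a melanoma cell adhesion molecule, had -3.12 in HP and -0.64 in HPN. Without HP-9, HPN-2 or HPN-7 2 genes were called, and without HPN-5 3.

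**Figure D5:**
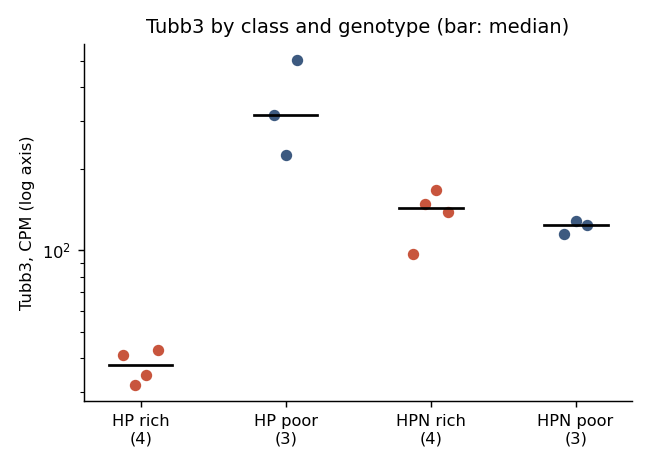
Tubb3 in CPM on a log axis in the 14 primaries by genotype and class (points) with medians (bars). HP poor libraries lie above all HP rich libraries, and the HPN classes overlap.

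Levels in the metastases were set beside both classes, in CPM of all gene counts and with no test, because sites and genotype differ. Krt5 was at 0.0530 to 5.03 CPM (median 3.25) in the 7 node libraries, within or below the range of the poor primaries. Ccnd1 was nevertheless at 201 to 497 CPM (median 264) in nodes, against 96.7 to 428 CPM (median 275) in the rich and 953 to 1907 CPM (median 1071) in the poor primaries on the same scale. Ccnb2 stood at 6.04 to 26.8 CPM (median 15.97) in nodes, below the lowest poor primary at 32.6 CPM. Spry2 stood at 26.6 to 87.5 CPM (median 42.8) in nodes, where the rich primaries had 25.2 to 72.3 CPM (median 45.1). In the 2 lung libraries Ccnd1 was at 761 and 784 CPM, between the classes of primaries. Klhl14 was at 4.18 to 14.9 CPM (median 8.12) in nodes and below 1 CPM in every rich primary. In the 2 lung libraries it was at 0.0641 and 0.420 CPM, within the range of the rich primaries. The node libraries also held more T cell RNA, with Cd3e at 7.44 to 71.6 CPM (median 38.7) against 0.0347 to 0.462 CPM (median 0.159) in the poor primaries, and its part in these levels was not tested.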

How the data were processed

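Total RNA of 23 mouse melanomas was made into directional libraries, per the labels' protocols. Tools named in the submitters' processing notes are bcl2fastq 1.8.4 for read files and STAR 2.5.3a for alignment, with mm9 as the genome build. The authors deposited raw counts per Ensembl gene, whole numbers in 1 file for each library. Counting tool, strand setting and annotation: not given in the sources used here. Therefore overlapping genes and near-identical copies may share reads. Symbols came from GENCODE vM21 by identifier and matched 87.45% of 37620 identifiers. Reads outside genes and other summary entries were kept out of library sizes. Over the 14 primaries, gene counts ran from 20418245 to 89481553.

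The members and gene lists were chosen with earlier results of these data known. Classes and genotype entered one edgeR 4.0.16 fit in R 4.3.3 (filterByExpr, TMM, robust glmQLFit, glmQLFTest, Benjamini-Hochberg over all genes tested, threshold 0.05). Lists are described by counts of called members and medians, with no test of the list. Genes used for the classes, and epithelial lists, are given with no p. Named genes were the 15 largest rises and falls at 5 CPM or more, and list members with small p or a described role; some of these are not reported here. Library measures were compared by exact permutation (scipy 1.17.1, Python 3.11.15). A fold against 0 counts is a bound against 3 counts over the class. Promoter windows came from the RefSeq table on GRCm38.p6, which differs from the build of the files, and were used for sequence only. Alternatives were DESeq2 1.42.0, limma 3.58.1 voom, other scalings and filters, covariates, subsets of libraries and each library left out. Checks on simulated counts preceded the fits. Same-number primaries of the 2 genotypes did not deviate together (6 pairs, correlations -0.59 to 0.147), so numbers were not used as pairs.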

Additional observations from a re-analysis of the deposited data

Results flagged for a closer look

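In 27 of 368 sets of class values (genes named, list means and library measures, on log2 scales for genes), 1 library stood apart from the rest of its class. The gap to the nearest library, as a share of the class range, passed Dixon's critical value (0.526 for 8 and 0.625 for 6 libraries). Chance flags about 1 in 20 such sets. HPN-7, a poor primary, was the lone low library for Pgr (gap 0.631), Nalcn (0.652), Snx22 (0.639), Rab3b (0.674) and Phyhipl (0.808), all genes with large falls in the rich class. HPN-7 was also the lone high poor library for Nrg1 (0.665), Edn1 (0.902), Wfdc5 (1.0) and the mean of the injury keratin and alarmin genes (0.646).

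HPN-2, another poor primary, was the lone high library for hair follicle genes (0.875 for the list mean), Krt25 (0.82), Tchh (0.827), Fgfr2 (0.642), Ggt6 (0.629), Wnt3 (0.641) and Cd274 (0.647). In this library, Cd274 stood at 126 CPM and Tchh at 38.2 CPM. HP-5 stood apart as a poor primary for Kctd4 (0.634), Aadacl2 (0.711) and Notch2 (0.747, low) and was the lowest for the fibroblast list mean (0.638). HP-9 was high for Agrn (0.629) and for Skint8 (1.0), and HPN-5 low for Kif11 (0.661). Among rich primaries, HPN-4 was high for Fam196a (0.55) and Slc44a5 (0.6), HP-4 was low for Cdc20 (0.53), and HP-3 was high for the mitochondrial share (0.679). For Skint8, Wfdc5, Kctd4, Ggt6, Wnt3 and Aadacl2, poor-class levels were at or below 0.0991 CPM, close to single reads.

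The class difference of Tubb3 was 3.38 higher on the log2 scale in HPN than in HP primaries, by the interaction test (adjusted p 0.00734), in 4 rich and 3 poor libraries of each genotype.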

How the results depend on the processing

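No gene called both as reported and in another fit changed its direction. Among the genes named, Tubb3 and Apol7d turned from lower to 0.18 and 0.063 in HPN primaries alone, where neither was called. Counts of higher and lower genes were 3877 and 2798 as reported. Fits without 1 library gave 3417 to 4160 higher and 1985 to 3044 lower genes. Library size alone as scaling gave 1791 lower genes. The 9 libraries whose entry for low-quality reads is 0 gave 2312 and 707, the 8 libraries with a Y-linked sum over 5 CPM 2521 and 682, and HPN alone 849 and 63. HP alone, with as many rich and poor libraries as HPN alone, gave 3934 and 1930. All these subsets hold fewer libraries than the full fit, and the cause of their counts was not tested. For the interaction, DESeq2 gave 271 genes and fits without 1 library gave 1 to 3. The difference in genes at 1 CPM or more was 1540 for medians (adjusted p 0.0711) and 1475 in the 9 libraries (0.0833), against 1578 as reported. With 84 arrangements and 7 measures, a lone measure at the smallest possible p is adjusted to 0.0833. It could pass only if other measures also had small p, and none did in the 9 libraries. The difference in ambiguous reads was -0.15 percentage points for medians (adjusted p 0.0711) and -0.13 in the 9 libraries (0.417), against -0.16 as reported (0.028). A title number never held both classes, so a fixed replicate block could not be fitted. With the number as a random replicate block, voom gave 4058 higher and 3113 lower genes. The HP, HPN and Y-linked subsets, the fit without HP-3 and HPN-6, and that without structural RNA were chosen after seeing the data. Genes near 1 CPM, such as the T cell genes, depend on the filter: 7 of 18 pass a filter of over 1 CPM.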
